A study of Mus musculus with 8 samples.

Results

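Regulators of mitochondrial biogenesis, chosen by gene symbol, were followed in gastrocnemius muscle of mice that lack one of the catalytic α subunits of the AMP-activated protein kinase (AMPK). The 10 genes were Ppargc1a, Ppargc1b, Tfam, Nrf1, Esrra, Esrrg, Ppara, Ppard, Nrip1 and Sirt3. Every polyadenylation site (APS) that the deposited table assigns to one of these symbols was taken, which gave 75 of 56483 APSs and 9 of 15378 genes; Ppard was not analysed here. The 3′ ends of polyadenylated transcripts were counted by WTTS-seq, a method that sequences transcript termini across the whole transcriptome, with 1 library per mouse and 8 libraries in all. The 4 groups were AMPKα1 KO, AMPKα1 WT, AMPKα2 KO and AMPKα2 WT, with 2 male mice in each. All 8 mice are labelled as adult and C57BL/6, whereas the methods of the study name 129S2/SvPas for the AMPKα1 KO line. By the same methods, the KO mice were killed at about 6 weeks in the AMPKα1 line and 8 weeks in the AMPKα2 line, while WT ages are not stated. The paper describes each KO allele as lacking part of the kinase's catalytic domain. Strain, age and genotype cannot be told apart where they differ together, so KO was compared with WT only within a model.

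PGC-1α and PGC-1β, the products of Ppargc1a and Ppargc1b, are coactivators without a DNA-binding domain of their own. They dock on transcription factors such as the estrogen-related receptors, the PPARs and NRF1 and raise transcription of nuclear genes for respiration and fatty acid oxidation, while RIP140, the product of Nrip1, is a corepressor at many of the same receptors. NRF1 activates the gene of TFAM, which packages mitochondrial DNA and acts in its transcription, and SIRT3 removes acetyl groups from mitochondrial enzymes. AMPK senses a fall in cellular energy, and in muscle it is known to act on PGC-1α.

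The libraries held between 2311242 and 3549156 counted reads, and between 1.88% and 17.9% of them lay at APSs without a gene. Reads were summed per gene and are given as CPM, which brings the reads assigned to genes in each library to a common total with TMM factors over the 8 libraries. These factors ran from 0.403 to 2.14 and separated the models, so CPM levels were not compared between models. Where reads are given, they are unscaled, and depth differed between libraries. After scaling, the totals were 6377287 and 6811141 in AMPKα1 KO and 3464532 and 6499228 in AMPKα1 WT. They were 850646 and 1333498 in AMPKα2 KO and 1849132 and 1133102 in AMPKα2 WT. All 10 markers of skeletal muscle fibres were read in every library, at a summed 48790 to 166900 CPM. The genes of AMPKα1 and AMPKα2, Prkaa1 and Prkaa2, were read at 2 and 7 APSs. Neither of the Prkaa1 APSs lay in an exon, and where the APSs lie relative to the deleted parts was not analysed here, so they do not check the knockouts. Prkaa1 had 0 and 82 reads in AMPKα1 KO libraries against 15 and 0 in WT. Prkaa2 had 40 and 71 reads in AMPKα2 KO libraries against 87 and 62 in WT. Scaled, the Prkaa2 values were 47.02 and 53.24 CPM in KO and 47.05 and 54.72 CPM in WT, and the groups overlapped. In whole muscle, fewer cells of a type and less RNA per cell cannot be told apart.

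None of the 9 genes was called between KO and WT in either model. A gene was called at a Benjamini-Hochberg adjusted p under 0.1 in edgeR's quasi-likelihood test, and a positive log2 fold change means a higher value in KO. In AMPKα1 mice, 0 of the 9 were called, where the test called 0 of 13941 genes (0.0%), and the lowest adjusted p among the 9 was 0.763. At an unadjusted p under 0.05 there were again 0 of the 9, against 587 genes (4.21%), and DESeq2 called 0 of the 9 and 124 genes (0.847%). In AMPKα2 mice, 0 of 8 tested genes were called, where edgeR called 71 of 10552 genes (0.673%), and DESeq2 called 0 of the 9 and 82 genes (0.562%). Nrf1 was under the minimum of 16 reads in AMPKα2 libraries and was not tested there by edgeR. At an unadjusted p under 0.05 stood 2 of the 8, Ppargc1a and Nrip1, against 898 of all genes (8.51%). The biological coefficient of variation, which is the spread that edgeR estimates between mice of a group, was 104% for AMPKα1 and 26.2% for AMPKα2. Since each group holds 2 mice, an exact two-sided permutation test of a single gene cannot give a p below 0.333.

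**Figure D1:**
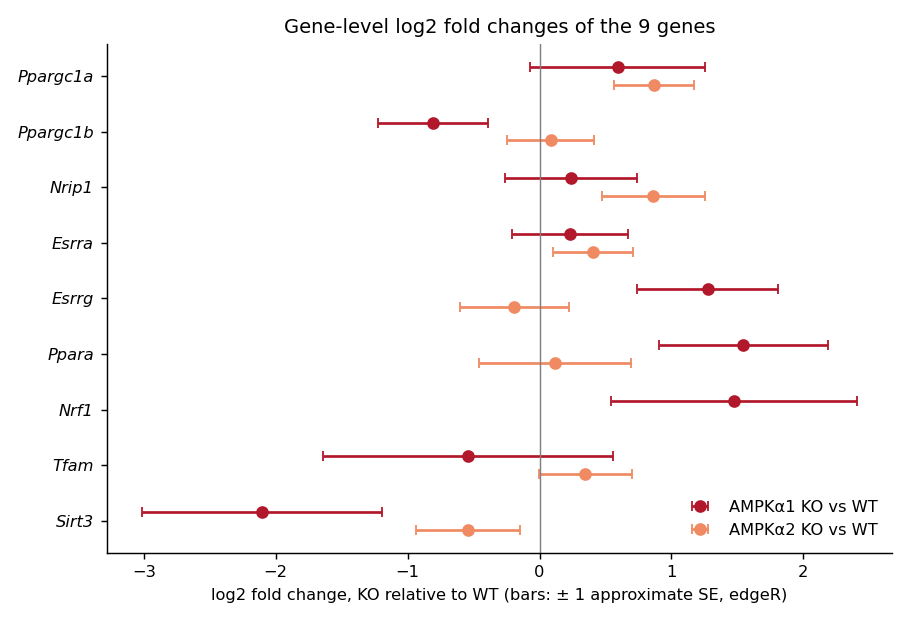
Gene-level log2 fold change of KO relative to WT (x axis) for each gene (y axis) in the AMPKα1 and AMPKα2 models, with bars of 1 approximate standard error from edgeR's fit. The estimates of Ppara, Nrf1 and Esrrg in AMPKα1 mice lie between 1.27 and 1.55 and that of Sirt3 at −2.10, and no estimate passed the adjusted threshold.

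Several genes nevertheless had KO and WT libraries that did not overlap. In the AMPKα1 comparison both KO libraries lay above both WT libraries for 3 of 9 genes (Nrf1, Esrrg and Ppara), as they did for 14.2% of all genes tested, and below them for 2 of 9 (Ppargc1b and Sirt3), against 18.1% of all genes. Among the 8 genes tested in AMPKα2 mice, 3 were higher in both KO libraries (Ppargc1a, Esrra and Nrip1), against 19.3% of all genes, and 1 was lower (Sirt3), against 20.3%. For Ppargc1a this held only with its opposite-strand reads. The median log2 fold change of the genes tested was 0.24 in AMPKα1 mice and 0.23 in AMPKα2 mice, beside −0.03 and −0.0046 over all genes.

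**Figure D2:**
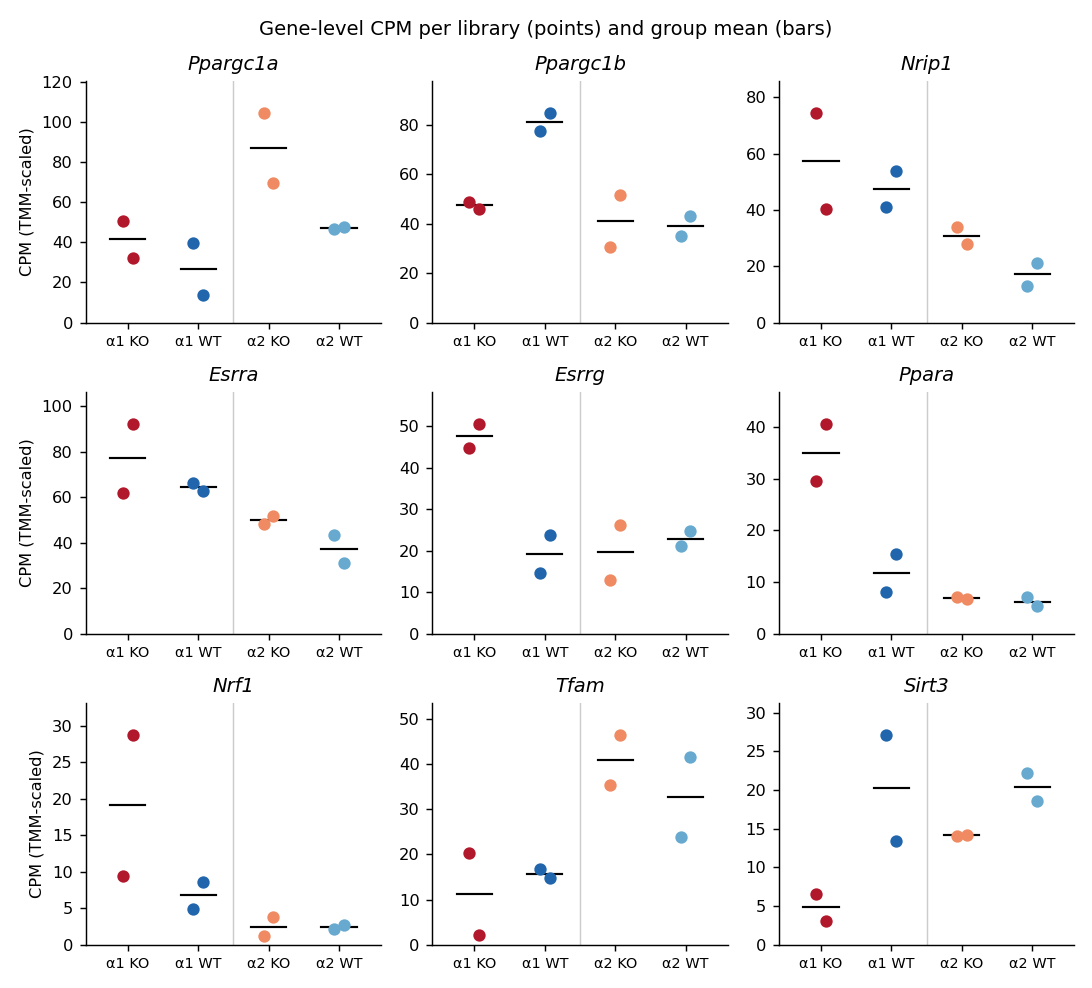
CPM of each gene (y axis, from 0) in each library (points) by group (x axis), with the group mean as a bar over 2 mice. The AMPKα1 KO libraries of Esrrg and Ppara stand above their WT libraries, and those of Sirt3 and Ppargc1b below. Of the genes shown, Sirt3 is the gene whose KO libraries are the lower ones in both models. How many of all genes share this pattern was not analysed here.

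Ppargc1a, the coactivator gene that exercise and cold induce in muscle, was measured at 10 APSs. Its annotated locus is chr5:51454250-51567726 on the minus strand of GRCm38. The AMPKα1 KO libraries had 50.5 and 32.3 CPM and the WT libraries 39.8 and 13.8 CPM, so the groups overlapped (log2 fold change 0.59, SE 0.66, edgeR adjusted p = 0.958). In AMPKα2 mice the values were 105 and 69.7 CPM in KO and 46.5 and 47.7 CPM in WT. The groups did not overlap, and the log2 fold change was 0.87 with an SE of 0.30 (edgeR unadjusted p = 0.0154, adjusted p = 0.409).

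Many of the Ppargc1a reads in AMPKα2 mice lay on the opposite DNA strand. The APS at position 51591506, upstream of the annotated gene and on the plus strand, had 57 and 44 reads in KO against 37 and 24 in WT, and it had 0 reads in all 4 AMPKα1 libraries. A second plus-strand APS, at 51523746 within an intron, had 15 and 12 reads in KO against 6 and 11 in WT. Opposite-strand reads made up 80.9% and 60.2% of the Ppargc1a reads in AMPKα2 KO and 50% and 64.8% in WT. On its own strand the gene had 19.98 and 27.8 CPM in KO and 23.3 and 16.8 CPM in WT, and the groups overlapped. With own-strand APSs alone the log2 fold change was 0.25 (SE 0.37, edgeR adjusted p = 0.905), and with exonic and downstream APSs alone it was also 0.25 (adjusted p = 0.909). Over all protein-coding genes, 18.6% to 28.9% of the reads in AMPKα2 libraries and 1.18% to 1.88% in AMPKα1 libraries were on the strand opposite to their gene.

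At the 3′ end of Ppargc1a, the main APS lay 1 base beyond the annotated end, at position 51454249. It had 110 and 33 reads in AMPKα1 KO, 95 and 52 in AMPKα1 WT, 7 and 10 in AMPKα2 KO and 12 and 10 in AMPKα2 WT, with overlapping groups in both models. Inside the 3′ UTR of exon 13, APSs went both ways. The one at 51456876 had 71 and 0 reads in AMPKα1 KO and 1 and 0 in AMPKα1 WT (log2 fold change 4.96, SE 3.81), so a single KO mouse held nearly all of them. The APS at 51455385 had 0 and 0 reads in AMPKα1 KO and 12 and 25 in AMPKα1 WT (edgeR adjusted p = 0.543). The APS at 51457650 had 6 and 15 against 22 and 13. The 30 bases that end at 51455385 and at 51457650 are shown because each carries the canonical polyadenylation signal AATAAA. It is in capitals, at position −22 and −14 from the APS base. In the sequence that ends at 51457650, another AATAAA overlaps the marked copy on its upstream side. Only the copy nearest the site is in capitals.
Ppargc1a, chr5:51455385-51455414, minus strand: taagagcAATAAAttatttttaagaaatca
Ppargc1a, chr5:51457650-51457679, minus strand: tacaaaaggaaaataAATAAAtataaatta

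Within introns of Ppargc1a the AMPKα1 groups stood further apart. The intronic APS at 51499525 had 39 and 108 reads in KO against 8 and 0 in WT, and the one at 51526773 had 43 and 29 against 0 and 0. Summed over both, the intronic reads were 82 and 137 in KO and 8 and 0 in WT (log2 fold change 3.13, SE 1.60, edgeR adjusted p = 0.814), while the exonic and downstream reads were 187 and 48 in KO and 130 and 90 in WT (log2 fold change −0.43, SE 0.86, adjusted p = 0.999). The 2 classes thus had estimates of opposite sign, and neither passed the test. An APS with 52 reads in KO replicate 1 and another with 35 reads in KO replicate 2 lay far upstream of the annotated gene and had 0 reads in every other library.

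**Figure D3:**
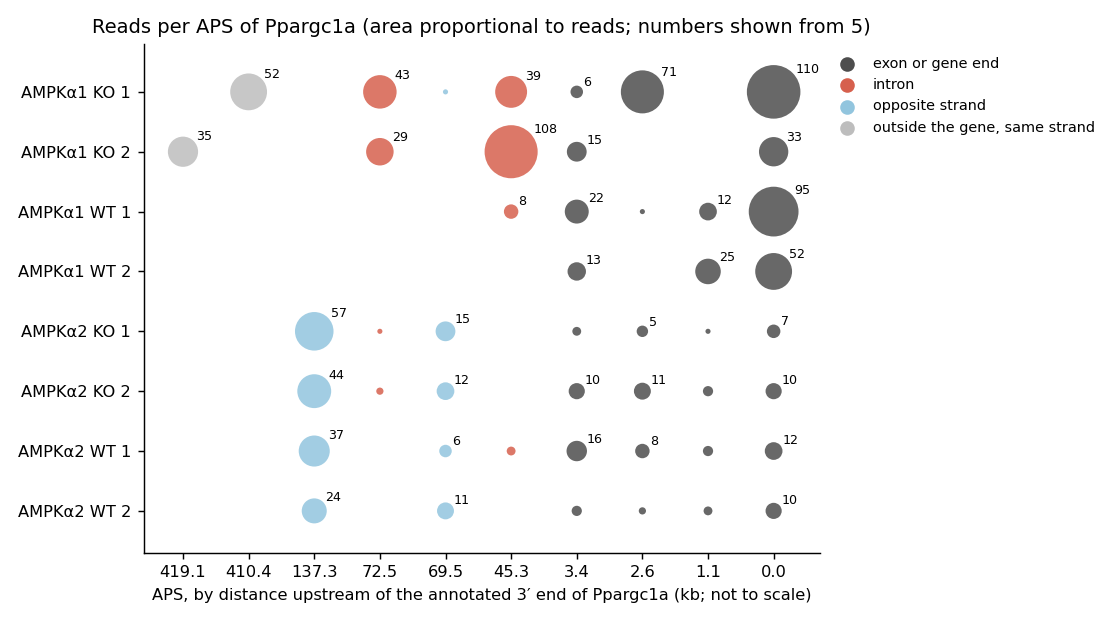
Reads at the 10 APSs of Ppargc1a (x axis, ordered by distance in kb upstream of the annotated 3′ end, not to scale) in each library (y axis), with dot area proportional to reads. Intronic dots are large in the AMPKα1 KO libraries, opposite-strand dots appear in the AMPKα2 libraries, and the end of the gene was read in all 8 libraries.

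Ppargc1b, the paralogue whose product shares the receptor partners of PGC-1α, was lower in both AMPKα1 KO libraries. Its CPM was 48.9 and 46.0 in KO and 77.4 and 84.9 in WT (log2 fold change −0.81, SE 0.42, edgeR adjusted p = 0.763). The main APS, at 61298162 on chromosome 18 in the 3′ UTR of exon 12, had 106 and 72 reads in KO against 109 and 339 in WT. These reads are unscaled, and the scaled total of WT replicate 1 was 3464532 against 6499228 in WT replicate 2. The fitted log2 fold change, which takes depth into account, was −1.77 (SE 0.73, edgeR adjusted p = 0.543). It ran from −2.085 to −1.415 with each library left out. With exonic and downstream APSs alone the gene's log2 fold change was −1.26 (SE 0.52, adjusted p = 0.80), and with intronic APSs alone it was 0.39 (SE 1.01). A coding APS in exon 5, at 61310760, had 75 and 115 unscaled reads in KO against 81 and 119 in WT. With depth taken into account its log2 fold change was −0.70 (SE 0.85, edgeR adjusted p = 0.870). In the AMPKα2 model the gene had 30.6 and 51.7 CPM in KO and 35.2 and 43.2 CPM in WT, and the groups overlapped (log2 fold change 0.08, SE 0.33, adjusted p = 0.961).

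Nrip1, the corepressor gene, was higher in both AMPKα2 KO libraries. Its values were 34.1 and 27.7 CPM in KO and 13.0 and 21.2 CPM in WT (log2 fold change 0.86, SE 0.39, edgeR unadjusted p = 0.0491, adjusted p = 0.580). These levels rest on few reads, 29 and 37 in KO and 24 and 24 in WT. The exonic and downstream APSs gave 10 and 24 reads against 7 and 10 (log2 fold change 1.37, SE 0.54, adjusted p = 0.408), and the intronic APSs gave 19 and 13 against 17 and 14 (0.41, SE 0.59). In AMPKα1 mice the groups overlapped, with 74.6 and 40.5 CPM in KO and 41.0 and 54.0 CPM in WT (log2 fold change 0.24, SE 0.50, adjusted p = 0.999).

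The Nrip1 locus, chr16:76287400-76373827 on the minus strand, ended at several places. The APS with the most reads, at 76318426, lay in an intron and had 87 and 35 reads in AMPKα1 KO and 98 and 80 in AMPKα1 WT. Of its 9 APSs, 4 lay in the 3′ UTR of exon 4. Of these, the one at 76290739 had 83 and 0 reads in AMPKα1 KO and 1 and 0 in AMPKα1 WT, so a single KO mouse held nearly all of them. The one at 76287733 had 62 and 77 reads in AMPKα1 KO and 8 and 99 in AMPKα1 WT, and the groups overlapped. The sequence that ends at 76287733 is shown because it holds the canonical signal AATAAA, in capitals, at −25.
Nrip1, chr16:76287733-76287762, minus strand: tttgAATAAAtgagaaatgcattgtctcta

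Among the nuclear receptors, Esrra had the highest mean CPM in all 4 groups. It encodes ERRα, an orphan receptor that PGC-1α coactivates at genes of oxidative phosphorylation. Values were 61.8 and 92.4 CPM in AMPKα1 KO against 66.1 and 62.8 in WT (log2 fold change 0.23, SE 0.44, edgeR adjusted p = 0.999), and 48.2 and 51.7 in AMPKα2 KO against 43.3 and 30.9 in WT (0.40, SE 0.31, adjusted p = 0.752). The AMPKα2 groups did not overlap, but their gap was small. Of its 1885 reads, 77.6% ended at position 6910977 on chromosome 19, the last base of the annotated locus, in the 3′ UTR of exon 7. That APS had 269 and 506 reads in AMPKα1 KO, 207 and 290 in AMPKα1 WT, 36 and 58 in AMPKα2 KO and 67 and 29 in AMPKα2 WT. Its upstream bases are shown because the site with the most reads of all 75 held neither AATAAA nor ATTAAA within 40 bases.
Esrra, chr19:6910977-6911006, minus strand: agaaaaaaaatatactatggagctcaagta

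Esrrg encodes ERRγ, which is known from slow, oxidative muscle, and it was higher in both AMPKα1 KO libraries. The values were 44.9 and 50.6 CPM in KO and 14.7 and 23.9 CPM in WT (log2 fold change 1.27, SE 0.54, edgeR adjusted p = 0.763). AMPKα2 libraries overlapped, at 12.9 and 26.2 CPM in KO and 21.1 and 24.7 CPM in WT (−0.19, SE 0.41, adjusted p = 0.935). None of the 19 APSs of Esrrg lay in an exon: 18 were intronic and 1 was antisense within an intron, over a locus of chr1:187608791-188214885 on the plus strand. The APS with the most reads, at 187852707, had 46 and 76 reads in AMPKα1 KO and 5 and 34 in WT, and the one at 187996791 had 38 and 71 against 5 and 5. Others were found in 1 mouse only, such as 48 reads at 187830483 in KO replicate 1 alone and 30 reads at 187849973 in KO replicate 2 alone. With the intronic APSs scaled on the intronic reads of all genes, the log2 fold change was 0.79 (SE 0.59, adjusted p = 0.814).

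Ppara, the receptor gene that drives fatty acid oxidation, was also higher in both AMPKα1 KO libraries. The AMPKα1 KO libraries had 29.5 and 40.7 CPM and the WT libraries 8.08 and 15.4 CPM (log2 fold change 1.55, SE 0.64, edgeR adjusted p = 0.763). In AMPKα2 libraries it was scarce, with 6 and 9 reads in KO against 13 and 6 in WT, which is 7.05 and 6.75 CPM against 7.03 and 5.29 CPM (0.12, SE 0.58, adjusted p = 0.972). Of its 7 APSs, 6 were intronic and the other lay beyond the annotated locus, chr15:85734983-85802819 on the plus strand. A single intronic APS, at 85785792, held 52.3% of the reads, with 121 and 123 in AMPKα1 KO and 17 and 57 in WT. On the scale of intronic reads, the gene's log2 fold change was 1.17 (SE 0.69, adjusted p = 0.814).

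Nrf1, a factor for nuclear genes of the respiratory chain, had 60 and 196 reads in AMPKα1 KO and 17 and 56 in WT. Scaled, these are 9.41 and 28.8 CPM against 4.91 and 8.62 CPM (log2 fold change 1.47, SE 0.93, edgeR adjusted p = 0.763). The KO reads all lay in introns, whereas most WT reads lay in exons: the exonic APSs had 0 and 0 reads in KO against 13 and 43 in WT, and the intronic APSs 60 and 196 against 4 and 13 (intronic log2 fold change 3.09, SE 1.21, adjusted p = 0.814). No APS of Nrf1 was shared by both AMPKα1 KO mice, since replicate 1 had all its 60 reads at position 30057911 on chromosome 6 and replicate 2 had 31, 97 and 68 reads at 3 other sites. The exonic reads of the 2 WT mice also fell at different APSs, 13 at 30140844 in the 3′ UTR of exon 5 and 43 at 30144829 in the coding part of exon 12. AMPKα2 libraries had 1 and 5 reads in KO against 4 and 3 in WT.

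Tfam, on chr10:71225464-71238280 (minus strand), was the gene whose APSs were all exonic, 5 of 5. AMPKα1 KO libraries had 20.2 and 2.2 CPM and WT libraries 16.7 and 14.8 CPM (log2 fold change −0.54, SE 1.10, edgeR adjusted p = 0.999). The KO mice differed from each other more than from WT. Without KO replicate 2 the log2 fold change was 0.30, and it was −2.84 without KO replicate 1. In the 3′ UTR of exon 7, the APS at 71225609 had 58 and 0 reads in AMPKα1 KO and 14 and 0 in WT (0.91, SE 3.06). The one at 71227553 had 67 and 0 in KO against 0 and 0 in WT (7.82, SE 4.46). At these sites KO replicate 1 alone held the KO reads. The main APS, at 71227938 in the 3′ UTR of exon 7, had 4 and 1 reads in AMPKα1 KO and 19 and 25 in WT (−3.71, SE 3.20, adjusted p = 0.640), and a coding APS in exon 4, at 71234892, had 0 and 0 against 7 and 71 (adjusted p = 0.543). Both passed the threshold in a fit that pools the spread of all 8 libraries (edgeR adjusted p = 0.0281 and 0.00223), as did 1 other of the 69 tested APSs, an APS of Ppargc1b at 61291445 beyond its annotated end with 0 and 0 reads against 14 and 3 (adjusted p = 0.0921). That fit thus called 3 of the 69 APSs, beside 1566 of 44024 of all APSs in AMPKα1, where the main fit called 2. In AMPKα2 mice the main APS had 24 and 45 reads in KO against 22 and 28 in WT, and the gene had 35.3 and 46.5 CPM against 23.8 and 41.5 CPM (0.35, SE 0.35, adjusted p = 0.838).

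Sirt3, on chr7:140863666-140882309 (minus strand), was the gene with lower values in both KO libraries of both models. Of all genes tested, 18.1% were lower in both AMPKα1 KO libraries and 20.3% in both AMPKα2 KO libraries. The share of genes lower in both models at once was not analysed here, so a shared KO effect on Sirt3 was not tested. Sirt3 had 6.59 and 3.08 CPM in AMPKα1 KO and 27.1 and 13.4 CPM in WT (log2 fold change −2.10, SE 0.91, edgeR adjusted p = 0.763). In AMPKα2 mice it had 14.1 and 14.2 CPM in KO and 22.2 and 18.5 CPM in WT (−0.54, SE 0.40, adjusted p = 0.741). Leaving out each library in turn gave −2.71 to −1.5 in AMPKα1 and −0.66 to −0.40 in AMPKα2. Counts were low, at 42 and 21 reads against 94 and 87, and 12 and 19 against 41 and 21. At the main APS, position 140863674 in the 3′ UTR of exon 8, the reads were 42 and 19 in AMPKα1 KO and 66 and 43 in WT (−1.66, SE 1.34, adjusted p = 0.586), and 12 and 15 in AMPKα2 KO and 35 and 17 in WT (−0.59, SE 0.48, adjusted p = 0.776). The AMPKα1 WT libraries also held intronic reads, 6 and 44, that the KO libraries did not, 0 and 0. The sequences of the main APSs of Tfam and Sirt3 show AATAAA in capitals at −20 and −14.
Tfam, chr10:71227938-71227967, minus strand: cttgcatagAATAAAaactctaattttcca
Sirt3, chr7:140863674-140863703, minus strand: tcatttcttgcatgaAATAAActtagtata

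Pooled over the 9 genes, a larger share of reads ended in introns in AMPKα1 KO than in WT. Intronic APSs, 43 of the 75, held 44.3% and 53.5% of the 9 genes' reads in AMPKα1 KO and 25.7% and 24.9% in WT. Among protein-coding genes of like abundance, with 200 to 2000 reads in all, the intronic shares were 17.7% and 21.8% in KO and 11.2% and 17.1% in WT, and KO replicate 1 lay close to WT replicate 2. The pooled share also moves with the levels of Esrrg and Ppara, whose reads are nearly all intronic. Without these genes the share was 30.3% and 37.1% in AMPKα1 KO and 19.9% and 13.2% in WT. Single genes went both ways, as Sirt3 had 0% and 0% intronic reads in KO against 6.38% and 50.6% in WT, and Nrip1 had 36.8% and 62.0% against 79.6% and 37.0%. In AMPKα2 libraries the 9 genes had 17.1% and 22.4% intronic reads in KO and 27.8% and 24.7% in WT, on totals of 245 to 398 reads, and the genes of like abundance had 14.9% and 14.3% against 13.4% and 12.9%. Without Esrrg, Ppara and opposite-strand reads, the AMPKα2 shares were 17.9% and 16.1% in KO and 19.6% and 16.2% in WT, so the groups overlapped. The pooled shares are given per mouse and were not tested. At single APSs, 0 of 69 tested in AMPKα1 and 0 of 20 in AMPKα2 were called, where edgeR called 2 of 44024 (0.00454%) and 13 of 23218 (0.056%) of all APSs. At an unadjusted p under 0.05 stood 2 of the 69 and 2 of the 20, against 3.07% and 7.59% of all APSs, and DESeq2 called 0 of 73 and 0 of 60, against 0.442% and 0.192%. The share of each APS within its gene was tested as well, and 0 of 69 and 0 of 19 were called, against 2 of 33265 (0.00601%) and 3 of 14687 (0.0204%), while 5 and 0 stood at an unadjusted p under 0.05, against 2.39% and 3.3%.

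**Figure D4:**
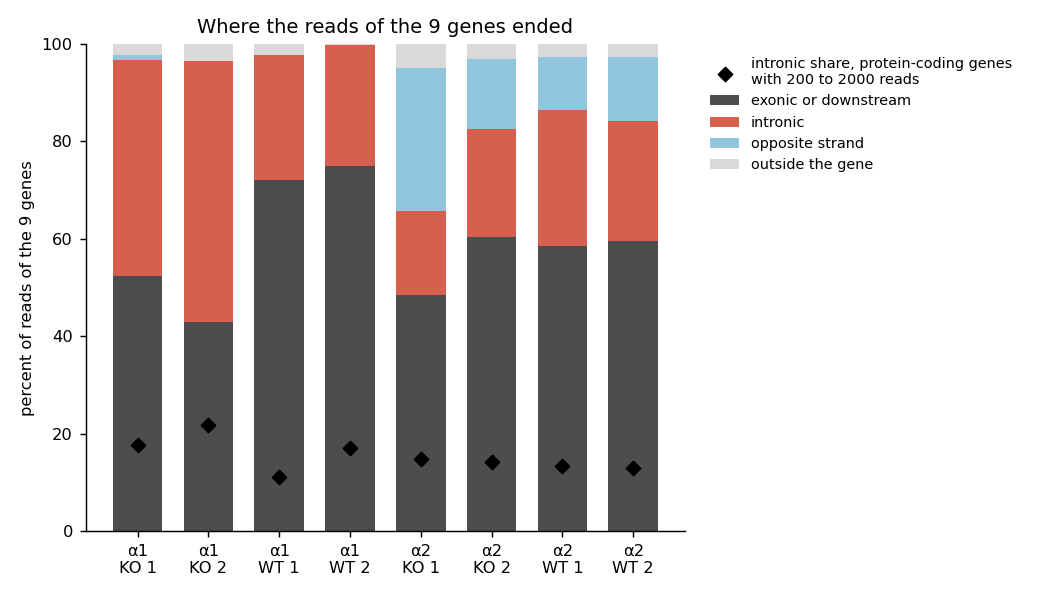
Percent of the 9 genes' reads (y axis) that ended in exons or just downstream, in introns, on the opposite strand or outside the gene, for each library (x axis), with diamonds for the intronic share of protein-coding genes with 200 to 2000 reads. The intronic part reaches 44.3% and 53.5% in the AMPKα1 KO libraries and stays between 17.1% and 27.8% in the other 6.

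Signals near the exonic APSs were searched in the spliced transcripts of GENCODE M21 on the transcript strand. AATAAA lay within 40 bases upstream of 6 of 22 exonic APSs of the 9 genes (27.3%), and of 35.6% of 19578 exonic APSs of protein-coding genes. With ATTAAA counted too, the shares were 36.4% and 46.1%. A stretch rich in A followed 8 of 16 of the APSs whose downstream bases could be read (50%), against 23.7% of all such APSs. A stretch of this kind is 7 As in a row, or 8 As in 10 bases, within 30 bases, and it is where an oligo(dT) primer can also start. Which of the intronic APSs have such stretches was not analysed here.

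Replicate mice of the AMPKα1 model often disagreed at single APSs. Of 48 APSs of the 9 genes with at least 16 reads in one AMPKα1 KO mouse, 27 had 0 reads in the other (56.2%), and over all APSs this share was 52.3%. In AMPKα1 WT it was 8 of 29 (27.6%), against 27.8% of all APSs. In AMPKα2 it was 0 of 5 in KO and 0 of 7 in WT, against 0.799% and 0.661%. The shares of the 9 genes lay near those of all APSs.

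**Figure D5:**
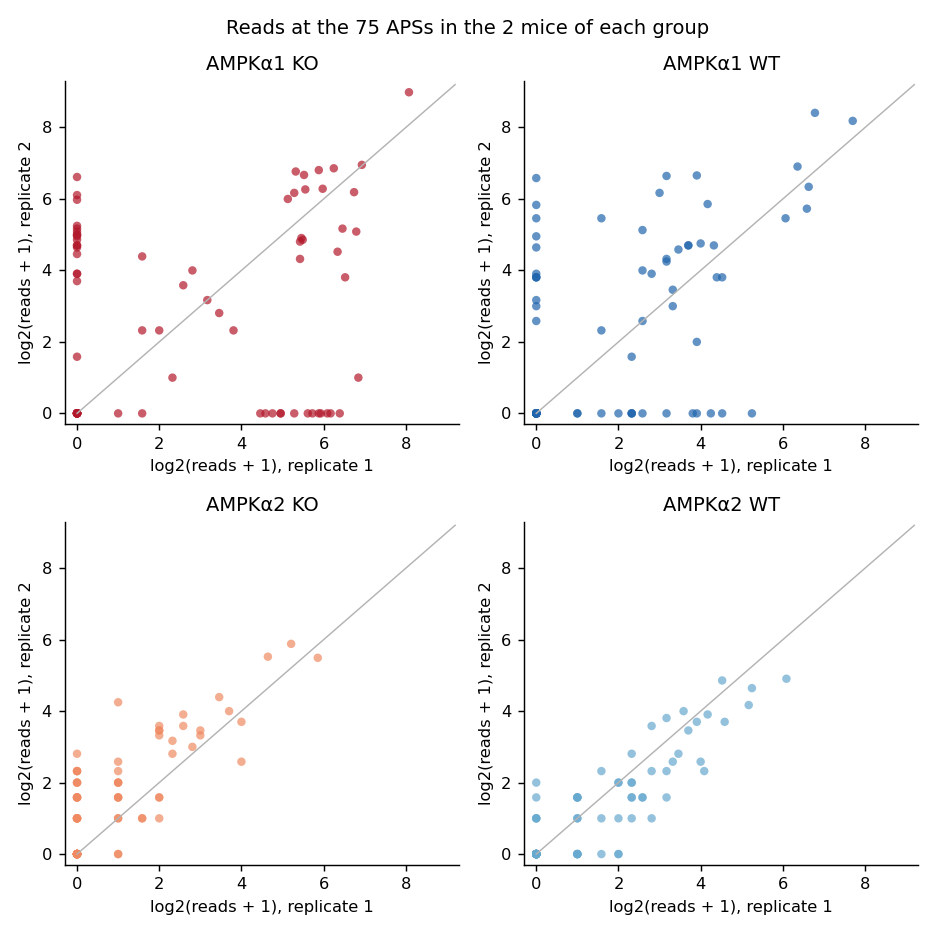
Reads at the 75 APSs in replicate 1 (x axis) and replicate 2 (y axis) of each group, as log2(reads + 1), with the line of equality. Points on the axes are APSs with 0 reads in one mouse, 27 of 48 APSs with at least 16 reads in AMPKα1 KO and 0 of 5 in AMPKα2 KO.

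An interaction of genotype with model, fitted over the 8 libraries, asked whether KO acted differently in the models. It passed the threshold for 0 of the 9 genes, against 10 of 15378 (0.065%), and for 0 of the 9 with DESeq2, against 180 (1.17%). At an unadjusted p under 0.05 there were 0 of the 9, against 6.98% of all genes. The smallest p belonged to Esrrg, whose log2 fold change was lower in AMPKα2 mice (difference −1.5, SE 0.70, edgeR adjusted p = 0.729). For Sirt3 the difference was 1.53 (SE 0.90, adjusted p = 0.798) and for Ppara −1.42 (SE 0.86, adjusted p = 0.806). A difference between the models was thus not shown for any of the 9.

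Genes around these regulators were read from 4 lists, and of all genes tested 48.9% lay above 0 in AMPKα1 and 49.6% in AMPKα2. Of 22 measured partners and upstream regulators of PGC-1, 0 were called in either model, with 14 above and 8 below 0 in AMPKα1 and a median of 0.26. Med1, a Mediator subunit that nuclear receptors contact, had 179 and 228 reads in AMPKα1 KO and 9 and 7 in WT. Its log2 fold change was 4.06 (SE 0.86, edgeR adjusted p = 0.763), and it was called by DESeq2 (adjusted p = 0.0345) and by the fit over 8 libraries (adjusted p = 0.0555). In AMPKα1-like data simulated once without a change, DESeq2 made 100 false calls among 13941 genes and edgeR 7. In AMPKα2-like data both made 0. The calls of DESeq2 in AMPKα1 mice are limited by this, those of Med1 and Myh7 included. Ncoa2, another coactivator, was at 1.33. In AMPKα2 mice 11 of 20 lay above 0, and the lowest p belonged to Lpin1 (−0.78, adjusted p = 0.469), whose product is also a coactivator with PGC-1α, and to Rxra (0.59, adjusted p = 0.557), the partner receptor of the PPARs.

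Known target genes of the PPARs, the estrogen-related receptors and PGC-1 in muscle lay mostly below 0 in AMPKα1 mice, with 19 of 23 below and a median log2 fold change of −0.53, but 0 were called. Ckmt2, the mitochondrial creatine kinase of muscle, was at −1.49 and Lpl, lipoprotein lipase, at 0.93, both with an adjusted p of 0.763. In AMPKα2 mice, 15 of 22 lay above 0, with a median of 0.19, and 1 was called. This was Fndc5, the gene of the irisin precursor, which the table holds as 2 gene entries. One entry had 0 and 0 reads in AMPKα2 KO and 266 and 185 in WT (adjusted p = 6.11e-05), and the other 110 and 172 in KO and 1 and 1 in WT (adjusted p = 6.11e-05). Summed, the gene had 129 and 129 CPM in KO and 144 and 164 CPM in WT. The entries share a symbol and their sequences were not compared here, so the call is uncertain.

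Genes for transcription and upkeep of mitochondrial DNA gave 0 calls, with 12 of 16 below 0 in AMPKα1 (median −0.51) and 6 of 12 below 0 in AMPKα2 (median −0.08). The lowest p in AMPKα1 belonged to Tfb1m, a mitochondrial rRNA methyltransferase with 0 and 0 reads in KO against 16 and 35 in WT, and to Tefm, the mitochondrial elongation factor, with 0 and 15 against 82 and 26. They belonged to Polrmt (−0.79), the mitochondrial RNA polymerase, and Slirp (−0.64), an RNA-binding protein, in AMPKα2. Mitochondrial fusion and fission genes also gave 0 calls, with 4 of 10 above 0 in AMPKα1 and 6 of 10 in AMPKα2. Among them the mitofusins Mfn1 (0.85) and Mfn2 (−1.68) had opposite signs in AMPKα1 mice, and Opa1 was at −0.77 and Mief1 at 1.85 in AMPKα2 mice.

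Markers of slow oxidative fibres, the fibre type richest in mitochondria, were read beside these genes, and 0 of 7 were called in either model. At an unadjusted edgeR p under 0.05 stood 6 of the 7 in AMPKα2, against 8.51% of all genes. In AMPKα1 it was 1 of the 7, against 4.21%. The markers were not tested as a set. Their summed CPM was 2918 and 1226 in AMPKα1 KO against 1092 and 886 in WT, and 4284 and 4466 in AMPKα2 KO against 1334 and 2832 in WT, without overlap in either model, as for 14.2% and 19.3% of single genes. All 7 markers lay above 0 in AMPKα2 mice, with a median log2 fold change of 1.05, and 5 of 7 did in AMPKα1 mice, with a median of 0.65. Myh7, the slow myosin heavy chain, was at 1.34 in AMPKα2 (SE 0.35, edgeR adjusted p = 0.240) and at 1.52 in AMPKα1 (SE 0.39, adjusted p = 0.763), and DESeq2 called it in both (adjusted p = 0.0295 and 0.0242). In AMPKα2, edgeR also called Myh7 without the filter on low counts (adjusted p = 0.00033) and with exonic and downstream APSs only (adjusted p = 0.0354). Myl3, the slow myosin light chain, was at 0.60 and 0.43. The 10 skeletal muscle fibre markers include fast-fibre genes such as Myh4 and Tnnc2, so they do not stand for all fibre types alike. They summed to 58660 and 48790 CPM in AMPKα1 KO and 109600 and 65540 CPM in WT, with all 10 below 0. These sums again did not overlap, and 18.1% of single genes were lower in both AMPKα1 KO libraries. Myh4, a fast myosin, was at −0.57 and Tnnc2, fast troponin C, at −0.81 there, and at 0.30 and −0.25 in AMPKα2. Of the other cell types, summed markers of adipocytes (309 to 1244 CPM, 6 of 7 read), brown adipocytes (1.54 to 11.5, 2 of 4), endothelium (58.1 to 114, 4 of 5) and red cells (267 to 2747, 5 of 5) overlapped between KO and WT in both models. All 6 adipocyte markers lay above 0 in AMPKα1 (median 0.86) and 5 of 6 below 0 in AMPKα2 (median −0.56), and all 5 red cell markers lay above 0 in AMPKα2 (median 0.42). Macrophage (40.9 to 243 CPM, 6 of 6), fibroblast (3111 to 8459, 5 of 5) and smooth muscle (47.2 to 122, 4 of 4) sums overlapped in AMPKα2. In AMPKα1 they were lower in both KO libraries, as were 18.1% of single genes. The pair of most abundant markers in each of these lists were Cfd and Fabp4, Dio2 and Cidea, Cdh5 and Pecam1, Hbb-bs and Hbb-bt, Lyz2 and Csf1r, Col1a1 and Col1a2, and Myh11 and Acta2, and none was called. The part of fibre type and of other cells in the values of the 9 genes was not tested.

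Within a group, the order of levels is given on CPM that were not divided by length, since reads come from 3′ ends. These sums include intronic, opposite-strand and outside reads, so the order is that of assigned reads and not of whole transcripts. In AMPKα1 WT the highest mean was Ppargc1b at 81.1 ± 5.36 CPM (SD, n = 2), then Esrra at 64.4 ± 2.35 and Nrip1 at 47.5 ± 9.21, each above the next in both mice, and the 6 genes below them overlapped with their neighbours. In AMPKα1 KO the order was Esrra at 77.1 ± 21.6, Nrip1 at 57.6 ± 24.1 and Esrrg at 47.8 ± 4.11 CPM, and neighbours overlapped except Ppara (35.1 ± 7.91) above Nrf1 (19.1 ± 13.7). In AMPKα2 the highest sum was that of Ppargc1a, at 87.2 ± 24.7 CPM in KO and 47.1 ± 0.812 in WT, a rank that rests on its opposite-strand reads. On its own strand Ppargc1a had 19.98 and 27.8 CPM in KO and 23.3 and 16.8 CPM in WT, which is below the means of Esrra, Ppargc1b and Tfam in both groups. The lowest was Nrf1, at 2.46 ± 1.82 and 2.41 ± 0.343.

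Gene patterns most like those of Ppargc1a and Esrra were sought over the 8 libraries, by Pearson's r of log2 CPM after each model's mean was removed. Gars (0.93), Trip10 (0.93) and Glul (0.93) were the nearest to Ppargc1a among 1306 genes with at least 50 reads in every library, and Usp47 (0.86), Hbb-bt (0.82) and Atxn1 (0.82) the nearest to Esrra. These are descriptions over 8 libraries that share their scaling, with no test. The Ppargc1a values used here are sums over both strands. In AMPKα2 libraries 50% to 80.9% of its reads lay on the opposite strand, so the pattern is not that of its own transcripts alone.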

How the data were processed

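Reads at each APS were counted by the authors, and the deposited values are raw counts. By the study's methods, strand-specific Ion PGM reads were filtered with FASTX Toolkit, trimmed of leading Ts, mapped with TMAP (build GRCm38.p5 per the labels), clustered within 24 nucleotides and assigned to genes with Cuffcompare. The table holds APSs with at least 16 reads in all. Priming inside A-rich RNA would count as an end too. Counts were summed per gene, and 6700 APSs without a gene were left out of gene totals. Within a model, KO was set against WT by edgeR's quasi-likelihood test (version 4.0.16 with limma 3.58.1, under R 4.3.3; TMM, robust fit, at least 16 reads over 4 libraries, Benjamini-Hochberg adjusted p under 0.1). Standard errors are approximate, since they come from each F statistic. Alternatives were DESeq2 1.42.0, RLE size factors, no filter, a minimum of 50 reads for APSs, own-strand APSs only, all 8 libraries in one fit, a replicate block and each library left out. Sums over exonic and downstream or over intronic APSs only, and intronic shares without Esrrg, Ppara or opposite-strand reads, were added after seeing the data. Locations are from GENCODE M21 (GRCm38), with up to 2 kb beyond a gene as downstream, and sequences from its transcripts. Python 3.11.15, pandas 2.3.3, numpy 2.4.6 and matplotlib 3.10.9 were used, and the code was tested on simulated data. Members and gene lists were chosen with earlier results of these data known. Named genes are the members, the AMPK genes, list genes called (otherwise the 2 of lowest p per list and model) and the 2 most abundant markers per list. Not all APSs of the members with at least 50 reads are named, so the named sites are a partial choice. APSs named with fewer reads were chosen after their values were seen. KO and WT share replicate numbers but are different mice, and same-numbered libraries did not deviate together (correlation 0.047 in AMPKα1 and −0.009 in AMPKα2), so the numbers were not used to pair them.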

Additional observations from a re-analysis of the deposited data

Results flagged for a closer look

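The share of the 9 genes' reads that ended in introns is given again because its difference between KO and WT had opposite signs in the models. In AMPKα1 the mean share was 48.9% in KO and 25.3% in WT, 23.6 percentage points higher in KO, with both KO libraries above both WT libraries. In AMPKα2 it was 19.8% in KO and 26.2% in WT, a difference of −6.50 points, with both KO libraries below both WT libraries. The 2 differences are −30.1 points apart (AMPKα2 minus AMPKα1), and this gap was not tested. Without Esrrg and Ppara, which are nearly all intronic, and without opposite-strand reads, the differences were 17.1 points in AMPKα1 and −0.85 in AMPKα2, where the groups then overlapped (17.9% and 16.1% in KO against 19.6% and 16.2% in WT). Protein-coding genes with 200 to 2000 reads had 17.7% and 21.8% in AMPKα1 KO against 11.2% and 17.1% in WT, and 14.9% and 14.3% in AMPKα2 KO against 13.4% and 12.9% in WT.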

How the results depend on the processing

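No member gene was called under any alternative run in either model, and 178 of 199 of the members' values with a library left out kept their direction and side of the threshold. The cause of the changes below was not tested. Genes called in AMPKα1 (0) numbered 124 with DESeq2, 97 with all 8 libraries in one fit and 3 with intronic APSs only. Those in AMPKα2 (71) numbered 397 without the filter, 7 in the fit of 8 libraries, 0 with intronic APSs only and 38 to 99 with a library left out. APSs called in AMPKα1 (2) numbered 218 with DESeq2, 4 without the filter, 1566 in the fit of 8 libraries, which called 3 APSs of the members, and 0 to 170 with a library left out. In AMPKα2 (13) they numbered 96, 557, 2 and 0 to 76 in that order. Changed shares numbered 0 to 2 and 0 to 26 with a library left out, and genes with a differing KO effect (10) 180 with DESeq2 and 0 to 550 with a library left out. With a replicate block, APSs called in AMPKα2 numbered 519, changed shares 1 in AMPKα1 and 7 in AMPKα2 and differing KO effects 0, the main APS of Esrra in AMPKα1 went to −0.038, and no call of a member changed; the numbers join different mice.

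With exonic and downstream APSs only, the AMPKα1 log2 fold change was −0.43 for Ppargc1a and −7.89 for Nrf1, which is no bound since KO had 0 reads, and that of Prkaa2 in AMPKα2 was 0.077 (0.0083 in the fit of 8 libraries). With intronic APSs only it was 0.39 for Ppargc1b, −0.59 for Nrip1, −0.26 for Lpl and 0.18 for Prkaa2 in AMPKα1, and −0.63 for Ppargc1b and −0.55 for Ppara in AMPKα2. Leaving out a library turned the sign of these AMPKα1 values: Esrra (−0.12 to 0.51), Nrip1 (−0.24 to 0.59), Tfam (−2.84 to 0.30), Prkaa2 (−0.71 to 0.24), Myl3 (−0.75 to 1.27), Tnnc2 (−1.35 to 0.17) and the main APSs of Esrra (−0.55 to 0.38) and Ppargc1a (−2.02 to 0.34). It did so in AMPKα2 for Ppargc1b (−0.35 to 0.38), Tfam (−0.030 to 0.77), Esrrg (−0.81 to 0.17), Ppara (−0.051 to 0.35), Prkaa2 (−0.14 to 0.075), Myl3 (−0.031 to 1.06) and the main APSs of Ppargc1a (−0.32 to 0.11) and Ppargc1b (−1.24 to 0.34). The difference between models ranged from −0.092 to 0.43 for Esrra, −0.77 to 0.83 for Ppargc1a and −0.14 to 3.16 for Tfam. Each of these fits leaves 1 mouse in a group, so only effect sizes are given. The coefficient of variation between mice was 104% in AMPKα1 and 26.2% in AMPKα2. In simulated data, edgeR recovered 5 of 200 genes changed 4-fold in AMPKα1-like data and 166 of 200 in AMPKα2-like data. Several members had under 50 reads per library in AMPKα2. What limited detection of the members was not tested. RLE size factors moved the median log2 fold change of all APSs in AMPKα1 from 0.02 to 0.15, and that of all genes by less than 0.1 in both models.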
